A study of Mus musculus with 30 samples.

Results

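The 8 genes described here encode the urea cycle and its immediate partners: Nags, Cps1, Otc, Slc25a15, Ass1, Asl, Arg1 and Arg2. They were chosen by name, as the rows for these mouse symbols among the 48709 genes that each of 5 deposited count tables lists, and all 8 were found. The tables hold RNA-seq fragment counts from brain, kidney, liver, muscle (quadriceps femoris) and spleen of adult C57BL/6 mice. Each tissue has 3 libraries labelled WT, with the genotype given as control, and 3 labelled Ctcf+/-, which carry 1 intact copy of Ctcf, so that 30 libraries fall into 10 groups. How the Ctcf allele was made, and which libraries of different tissues came from the same mouse, are not given in the sources used here. The series was designed to ask what reduced Ctcf dosage does to intron retention in each tissue. The exon counts analysed here bear on gene expression only.

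The urea cycle turns ammonia, which is toxic, into urea for excretion, and the whole cycle runs in hepatocytes, mainly in those around the portal veins. Its first steps take place in mitochondria, where carbamoyl phosphate is made and joined to ornithine, and the later steps run in the cytosol, where citrulline is converted through argininosuccinate to arginine and arginine is split. Parts of the pathway serve other ends elsewhere: the proximal tubule of the kidney makes arginine from circulating citrulline, and macrophages and endothelial cells recycle citrulline for nitric oxide synthesis. CTCF, the protein that Ctcf encodes, binds DNA through zinc fingers and helps to hold chromatin loops.

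On GRCm38 the members lie on 8 chromosomes and are not neighbours of each other. Nags is at chr11:102145513-102149477 on the plus strand, Cps1 at chr1:67123026-67231259 on the plus strand and Otc at chrX:10252305-10321024 on the plus strand. Slc25a15 is at chr8:22375551-22398597 on the minus strand, Ass1 at chr2:31470207-31520672 on the plus strand and Asl at chr5:130011258-130029247 on the minus strand. Arg1 is at chr10:24915208-24927470 on the minus strand and Arg2 at chr12:79130777-79156301 on the plus strand.

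Upstream sequences of 4 of the 8 genes were found in the RefSeq promoter table for GRCm38.p6: Otc, Nags, Ass1 and Slc25a15. They are shown because no other member had an entry. Otc and Nags turned out to be expressed in liver almost alone, while Ass1 and Slc25a15 were expressed in the WT libraries of all 5 tissues. Each sequence is written 5′ to 3′ on the strand of the gene and stops before the first annotated exon base, and capitals mark CpG dinucleotides. The Otc window is chrX:10252055-10252304 on the plus strand, that of Nags chr11:102145263-102145512 on the plus strand, that of Ass1 chr2:31470020-31470206 on the plus strand and that of Slc25a15 chr8:22398622-22398871 on the minus strand.
Otc: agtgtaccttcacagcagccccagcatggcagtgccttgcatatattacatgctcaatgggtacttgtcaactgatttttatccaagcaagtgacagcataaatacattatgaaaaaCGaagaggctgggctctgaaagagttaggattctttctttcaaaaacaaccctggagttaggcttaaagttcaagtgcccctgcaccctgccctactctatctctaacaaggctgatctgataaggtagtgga
Nags: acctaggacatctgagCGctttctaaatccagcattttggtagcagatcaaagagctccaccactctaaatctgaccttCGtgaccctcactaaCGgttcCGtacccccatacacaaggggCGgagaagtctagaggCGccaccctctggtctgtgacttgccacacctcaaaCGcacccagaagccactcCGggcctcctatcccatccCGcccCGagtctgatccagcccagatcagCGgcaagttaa
Ass1: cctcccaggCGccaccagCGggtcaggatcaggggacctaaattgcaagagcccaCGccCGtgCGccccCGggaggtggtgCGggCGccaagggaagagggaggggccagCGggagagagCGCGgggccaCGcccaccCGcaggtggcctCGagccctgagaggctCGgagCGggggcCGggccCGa
Slc25a15: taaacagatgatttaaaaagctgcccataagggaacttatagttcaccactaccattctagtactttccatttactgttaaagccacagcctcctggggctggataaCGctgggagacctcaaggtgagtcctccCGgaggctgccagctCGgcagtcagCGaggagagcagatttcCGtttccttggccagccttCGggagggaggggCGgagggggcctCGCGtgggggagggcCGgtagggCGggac
The Otc window held 1 CpG in 250 bases and 43.6% G or C. The Nags window held 11 CpG at 55.6% G or C and the Slc25a15 window 11 CpG at 57.6%. The shorter Ass1 window held 18 CpG in 187 bases at 75.4% G or C. Over all 32851 windows of the table, trimmed to the same lengths, the median was 6 CpG and 52.4% for 250 bases and 4 CpG and 51.3% for 187 bases. By this count the composition did not divide the genes by breadth of expression, since Nags and Slc25a15 had the same number of CpG.

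Short motifs were searched on both strands of the same windows. The GC box, GGGCGG, was found 2 times in Nags and 2 times in Slc25a15, and 32.7% of all windows of 250 bases hold it. The letters of the C/EBP motif TTGCNNAA, the HNF4 motif CAAAGNNCA and the TATA motif TATAAA were not in any of the 4 windows. In windows of 250 bases these occur in 9.56%, 5.49% and 12.4% of the table. In windows of 187 bases the shares are 7.69%, 4.12% and 8.62%, and that of the GC box is 22.2%.

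The 30 libraries held 49819907 to 131645999 counted fragments each. Ctcf was lower in the Ctcf+/- group of every tissue, at 61.4% of the WT mean in kidney, 62.1% in brain, 63.4% in liver, 65.3% in spleen and 67.2% in muscle, and the groups did not overlap in any tissue. By the edgeR test used for the members, Ctcf itself was called in brain alone (adjusted p = 0.0259) and not in kidney (0.107), muscle (0.250), liver (0.543) or spleen (0.914). Marker genes fitted the tissue labels: Mbp was the most abundant of the 8 brain markers in brain (278 FPKM), Kap of the 8 tubule markers in kidney (16649 FPKM), Alb of the 8 hepatocyte markers in liver (89799 FPKM), Acta1 of the 8 skeletal muscle markers in muscle (38873 FPKM) and Hba-a1 of the 8 lymphoid and erythroid markers in spleen (16742 FPKM). S100a8 led the 8 myeloid markers in spleen at 437 FPKM. All 8 markers of each of the first 5 lists were called higher in their own tissue when liver was compared with that tissue or, for hepatocytes, with each other tissue. Markers of a second tissue were counted in some libraries, and their source was not tested. Hepatocyte markers were found in the WT spleens and, most of all kidneys, in Ctcf+/- kidney 3. Alb was also at 41.3 CPM in WT kidney 1 and 26.7 CPM in WT kidney 3, against 8.79 to 11.9 CPM in the remaining kidneys. In WT muscle 1 Alb was at 9.66 CPM, against 0.0296 to 1.46 CPM in the other muscles. Tubule markers were found in the WT muscles, in Ctcf+/- muscle 3 and in the Ctcf+/- spleens. Skeletal muscle markers stood at 204 CPM in WT kidney 3 and 258 CPM in Ctcf+/- kidney 3, against 8.91 to 11.7 CPM in the other 4 kidneys. Further marker values are given beside the results they accompany.

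Levels are given first. They are in FPKM, fragment counts set against exon length and library size after TMM scaling (a scaling that assumes most genes do not differ), so that genes can be compared with each other, and each is a mean ± SD over n = 3 libraries unless single libraries are given. TMM sets liver and muscle higher against the other tissues than total counts would, by 0.99 on the log2 scale for liver against kidney, 1.11 for liver against brain and 1.15 for muscle against brain. Comparisons between tissues that this changes are named. In these bulk samples, fewer cells of a type and less RNA per cell cannot be told apart.

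**Figure D1:**
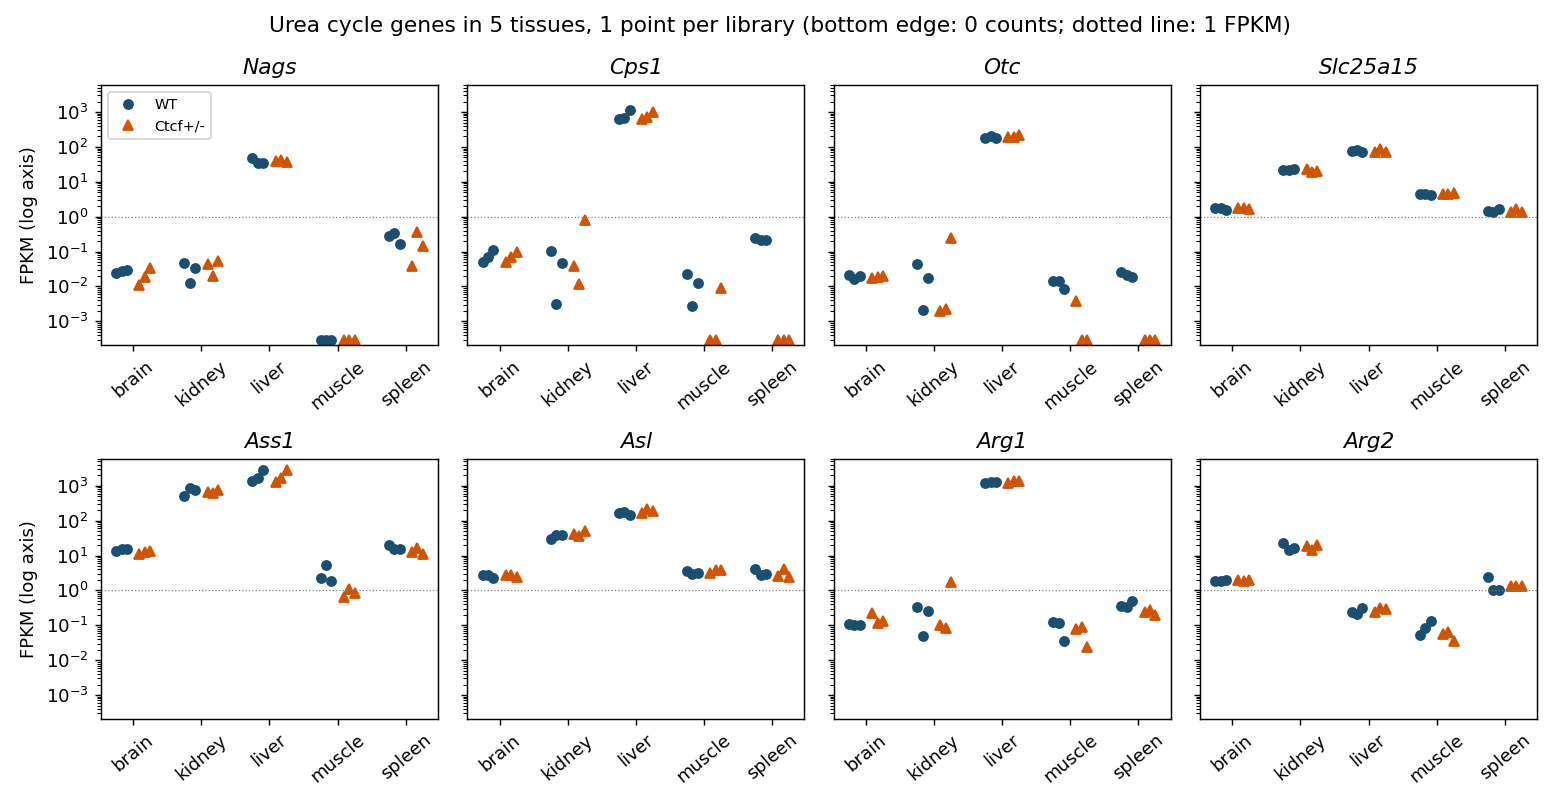
Each panel shows 1 gene, with FPKM on a log axis against tissue, 1 point per library, circles for WT and triangles for Ctcf+/-. Points on the bottom edge are libraries with 0 counts, and the dotted line marks 1 FPKM. Nags, Cps1, Otc and Arg1 stand far above this line in liver and below it in every other tissue except for 1 Ctcf+/- kidney for Arg1, while Slc25a15 and Asl lie above it everywhere.

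The mitochondrial entry of the cycle was a liver pattern. Cps1, which makes carbamoyl phosphate from ammonia and bicarbonate and is the main point of flux control, measured 628, 698 and 1113 FPKM in the 3 WT livers. It was at most 0.251 FPKM in every other WT library: the means were 0.224 ± 0.0239 in spleen, 0.0776 ± 0.0310 in brain, 0.0516 ± 0.0506 in kidney and 0.0126 ± 0.00980 in muscle. Liver was therefore 3637-fold above spleen, the next tissue in order. Among the lower tissues spleen exceeded brain (edgeR adjusted p = 0.0381), whereas brain against kidney (adjusted p = 0.401) and kidney against muscle (adjusted p = 0.0735) missed the threshold of 0.05. The order of these low tissues did not carry over to the Ctcf+/- mice, whose spleens held no Cps1 count at all.

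Otc, which joins carbamoyl phosphate to ornithine to form citrulline, measured 183, 199.7 and 179 FPKM in WT liver. The other 4 tissues lay between 0.0125 ± 0.00370 in muscle and 0.0222 ± 0.00358 in spleen, and no pair of them was called. These low WT values rest on 1 to 22 counts per library, and liver was 8425-fold above spleen. Nags, which makes the N-acetylglutamate that CPS1 needs as an activator, was the least abundant of the liver genes of the cycle, at 47.9, 34.8 and 34.2 FPKM in the WT livers. Spleen followed at 0.264 ± 0.0881 FPKM, above kidney at 0.0309 ± 0.0173 and brain at 0.0271 ± 0.00302, which did not differ by the test (edgeR adjusted p = 0.803). Nags had 0 counts in all 6 muscle libraries. Against 3 counts in each WT muscle library, liver was at least 2289-fold higher and spleen at least 15.5-fold higher. Counting ignored strand, and 15.6% of the exon bases of Nags (443 of 2838) overlap the minus-strand gene Gm11586, so the low values of Nags are uncertain.

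Slc25a15, the carrier that brings ornithine into mitochondria and takes citrulline out, was broad. It measured 76.5, 83.1 and 71.8 FPKM in the WT livers and 22.2, 22.5 and 23.4 FPKM in the WT kidneys. Muscle followed at 4.40 ± 0.0954 FPKM, brain at 1.69 ± 0.142 and spleen at 1.49 ± 0.113. Liver was 3.40-fold above kidney, with no overlap between libraries. All neighbours in this order differed by the test, brain and spleen by the smallest margin (edgeR adjusted p = 0.0370, lost without replicate 1 at 0.173 and without replicate 2 at 0.480). Under total counts muscle over brain (adjusted p = 0.171) and brain over spleen (adjusted p = 0.167) were no longer called.

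The cytosolic pair that makes arginine formed a second pattern, high in liver and kidney and detectable throughout. Ass1, which condenses citrulline with aspartate, was the most abundant member in every WT tissue except muscle, where Slc25a15 and Asl exceeded it. It measured 1385, 1717 and 2895 FPKM in WT liver and 509.7, 864 and 753 FPKM in WT kidney, 16.8 ± 2.63 in spleen, 14.6 ± 1.26 in brain and 3.17 ± 1.82 in muscle. The 2.82-fold excess of liver over kidney was called (edgeR log2 difference of kidney over liver -1.48, SE 0.37, adjusted p = 0.00369), but under total counts it shrank to -0.54 with adjusted p = 0.215. Spleen and brain did not differ by the test (adjusted p = 0.781). Asl, which splits argininosuccinate into arginine and fumarate, measured 163, 175 and 141 FPKM in WT liver and 29.7, 38.5 and 39.5 in WT kidney, a 4.45-fold difference. Spleen (3.23 ± 0.730), muscle (3.23 ± 0.357) and brain (2.58 ± 0.267) lay close together. Muscle over brain only just passed the test (edgeR adjusted p = 0.0494) and turned round under total counts, where brain was the higher by 0.87 on the log2 scale (adjusted p = 9.75e-05).

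The ratio of the 2 enzymes differed between tissues as well. In FPKM, Ass1 exceeded Asl by 17.2- to 22.4-fold in the WT kidneys, 8.47- to 20.5-fold in the WT livers, 4.82- to 6.76-fold in brain and 4.88- to 5.58-fold in spleen. In WT muscle the ratio ran from 0.595 to 1.83. The kidney range thus overlapped that of liver and lay above brain, spleen and muscle. Because both values come from the same library, this ratio does not depend on how libraries were scaled.

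The last step, the splitting of arginine into urea and ornithine, has 2 enzymes with opposite patterns. Arg1, the cytosolic arginase, measured 1194, 1297 and 1278 FPKM in WT liver. It stood at 0.404 ± 0.0929 in spleen, 0.209 ± 0.145 in kidney, 0.104 ± 0.00359 in brain and 0.0922 ± 0.0496 in muscle. Spleen exceeded brain (edgeR adjusted p = 0.00233) and muscle (adjusted p = 0.00340) but missed the threshold against kidney (adjusted p = 0.0612). Arg2, the mitochondrial arginase, went the other way: 22.8, 14.9 and 16.2 FPKM in WT kidney, 1.90 ± 0.0843 in brain, 1.46 ± 0.779 in spleen, 0.260 ± 0.0519 in liver and 0.0915 ± 0.0399 in muscle. It was the single member with its maximum outside liver, 9.43-fold above the next tissue, brain. Brain and spleen did not differ by the test (adjusted p = 0.179), and liver over muscle (adjusted p = 0.0227) was lost without replicate 2 or replicate 3 (adjusted p = 0.0579 and 0.0693). The FPKM ratio of Arg1 to Arg2 ran from 4031 to 6020 in the WT livers and from 0.00321 to 0.0154 in the WT kidneys. Of the 1428 exon bases of Arg2, 285 overlap Vti1b on the other strand, so its values are uncertain to that extent, in a direction not known here.

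By the criterion of at least 1 FPKM in every WT library, 7 of the 8 members were expressed in liver, all but Arg2. Kidney, brain and spleen each had the same 4, namely Ass1, Asl, Arg2 and Slc25a15, and muscle had 3, without Arg2. In the Ctcf+/- libraries the counts were the same except in muscle, where Ass1 dropped below the line in some libraries and 2 remained. No tissue other than liver thus held Cps1, Otc, Nags or Arg1 at this level. The citrulline-to-arginine pair and the ornithine carrier were present in the WT libraries of all 5 tissues. For Ass1 in muscle, the WT libraries also held Kap, a kidney tubule marker, at 491 to 4773 counts. Ctcf+/- muscles 1 and 2 held no Kap count and had Ass1 at 0.637 and 1.07 FPKM. The part of the tubule markers was not tested. The 4 in brain and in spleen depend on the criterion: at 2 FPKM both tissues had 2. Together the 8 genes took 0.649% to 1.24% of all counts in the WT livers, 0.200% to 0.299% in the WT kidneys, 0.00852% to 0.0105% in spleen, 0.00831% to 0.00890% in brain and 0.00276% to 0.00326% in muscle.

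Tests between tissues were run for all 10 pairs in the WT libraries. Against liver all 8 members were called in each of the 4 comparisons. Against brain, kidney and spleen 7 were higher in liver and Arg2 was lower, and against muscle all 8 were higher. Most genes differ between tissues, which sets the background: 73.2% of all genes tested were called between brain and liver (33.3% higher in liver, 39.9% higher in brain), 54.1% between kidney and liver (24.7% and 29.4%), 72.9% between liver and spleen (35.2% higher in liver, 37.7% in spleen) and 64.2% between liver and muscle (31.9% and 32.3%). The median log2 difference of liver over kidney was 6.19 over the 8 members against -0.08 over all genes tested, and over brain it was 8.72 against -0.15.

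Outside liver, kidney stood apart from brain in 4 members, all higher in kidney (Ass1, Asl, Arg2 and Slc25a15; background 71.4%, with 36% higher in kidney and 35.5% in brain). Kidney exceeded muscle in 5 (background 64.4%, with 35.9% higher in kidney and 28.5% in muscle), and under total counts this count was 8. Kidney against spleen gave 4 higher in kidney and 2, Cps1 and Nags, higher in spleen (background 75.5%, with 39.2% and 36.3%). The WT spleens in this comparison carried hepatocyte markers (Alb at 1989 to 2386 counts, against 2 to 10 in the Ctcf+/- spleens). In the Ctcf+/- libraries the direction turned for Cps1, which was the higher in kidney (26, 7 and 563 counts against 0 in each spleen, edgeR adjusted p = 0.000876). The 563 counts came from Ctcf+/- kidney 3, which had 21559 Alb counts beside 833 and 993 in the other Ctcf+/- kidneys. Nags did not turn: it was counted 16, 107 and 57 times in Ctcf+/- spleen and 15, 6 and 19 times in Ctcf+/- kidney. The part of these markers was not tested. Brain against muscle gave 4 higher in brain and 2 higher in muscle (background 72.3%, with 39.9% and 32.5%). Brain against spleen gave 1 and 3 (background 79.8%, with 42.8% and 37%). Muscle against spleen gave 1 higher in muscle, Slc25a15, and 5 higher in spleen (background 75.2%, with 37.2% and 38.1%). Outside the liver comparisons 4 to 6 of 8 members were thus called, a share below or near that of all genes.

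The members also varied among themselves in how alike their patterns were. Likeness was measured as the root mean square difference of log2 CPM, each gene centred on its own mean, over the 15 WT libraries. Asl and Slc25a15 were the closest pair of members at 0.58, followed by Otc and Arg1 at 0.64 and by Cps1 and Arg1 at 1.11. Ass1 stood 1.57 from Asl and 2.02 from Slc25a15. Arg2 was far from all others, from 3.34 to Asl up to 6.95 to Cps1. So Cps1, Otc, Arg1 and Nags lay within 1.91 of each other, Ass1, Asl and Slc25a15 within 2.02, and Arg2 alone. All 15 libraries share the tissue differences, so these distances describe tissue patterns above all.

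Among 15845 other genes with at least 1 CPM in some tissue, the patterns nearest to each member were as follows. Cps1 was nearest to Tat (0.59), Abcb11 (0.72) and Mat1a (0.73). Otc lay nearest to Hsd17b6 (0.47), Cyp3a44 (0.51) and Cyp2c70 (0.52), and Arg1 to Cyp2c54 (0.45), Sult2a8 (0.49) and Cyp3a25 (0.50). The Cyp and Sult genes belong to families whose near-identical members could share fragments, so their places are uncertain. Nags was nearest to F9 (0.74), Vsig4 (0.80) and Serpina11 (0.81). For Ass1 the nearest were Grb7 (0.50), Slc26a1 (0.54) and Slc25a13 (0.66), the last of them the mitochondrial aspartate-glutamate carrier that supplies aspartate to the ASS1 reaction. Asl was nearest to Igfbp4 (0.37), Pdia5 (0.40) and Cebpa (0.44), Slc25a15 to Tmem220 (0.32), Gcdh (0.35) and Depdc7 (0.35), and Arg2 to Slco4a1 (0.61), Snx31 (0.78) and Dusp9 (0.80).

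Genes that feed the cycle or draw on it were described from lists. Of 13 genes that use ornithine, arginine or citrulline in side reactions, 5 were higher and 5 lower in liver than in kidney, and the median difference was -0.00 on the log2 scale. In liver the highest of them were Oat, the ornithine aminotransferase (354 ± 25.6 FPKM), and Gamt, which completes creatine synthesis (269.7 ± 25.4). In kidney they were Gatm, which begins creatine synthesis from arginine (205 ± 52.4), and Oat (173 ± 14.0). In muscle they were Oat (157 ± 2.96) and Odc1, the ornithine decarboxylase of polyamine synthesis (43.3 ± 9.84), in spleen Odc1 (140.4 ± 74.8) and Oat (24.0 ± 0.887), and in brain Oat (31.2 ± 0.205) and Gatm (29.1 ± 0.907). So the highest of these genes in kidney, muscle, brain and spleen measured more than Cps1, Otc, Nags and Arg1 did there.

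Of 11 genes that release or bind ammonia or supply glutamate, 9 were higher and 1 lower in liver than in kidney. Glud1, glutamate dehydrogenase, led in liver at 505 ± 110.2 FPKM, followed by Glul, glutamine synthetase, at 349 ± 70.7. Brain had its highest value of this list in Glul (405 ± 8.15 FPKM) followed by Got1, an aspartate aminotransferase (121 ± 6.15). In kidney the leaders were Glul (215 ± 111) and Glud1 (129.9 ± 12.9), in spleen Glul (53.5 ± 15.3) and Glud1 (29.8 ± 1.45), and in muscle Got1 (229.8 ± 31.6) and Got2 (154 ± 11.9).

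Of 8 hepatic transcription factors and hormone receptors, 4 were higher and 1 lower in liver than in kidney, and 7 were higher in liver than in spleen. Cebpa (222 ± 49.9 FPKM) and Hnf4a (181 ± 62.0) led in liver. The same pair led in kidney, where Hnf4a stood at 115 ± 2.87 and Cebpa at 27.5 ± 1.33. Brain and spleen were led by other factors, Nr3c1 in brain (8.62 ± 1.32) and Cebpb in spleen (13.3 ± 4.93), and muscle by Cebpb (64.0 ± 22.8). Of the liver zonation genes, 7 of 8 periportal genes, led in liver by Pck1 (604 ± 516) and Cyp2f2 (506 ± 71.6), and 6 of 8 pericentral genes, led by Cyp2e1 (4504 ± 1246) and Oat, were higher in liver than in kidney.

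Genotype was tested within each tissue. CPM, counts set against library size after TMM scaling within the tissue but not against gene length, is used from here on, since each gene is compared with itself. Low counts kept some members out of the test: 8 members were tested in liver, 8 in spleen, 7 in kidney, 6 in brain and 3 in muscle. The test called 1 member, Cps1 in spleen. None of the others was called in any tissue by edgeR's quasi-likelihood test with Benjamini-Hochberg adjustment. Calls were rare among all genes: the test passed 0.242% of them in spleen (0.183% lower in Ctcf+/-), 0.0249% in muscle, 0.0211% in kidney, 0.0193% in liver and 0.0157% in brain. An unadjusted p under 0.05 was reached by 3 members in spleen, 1 in muscle and 1 in brain, where 3.52%, 6.45% and 2.96% of all genes reached it, and by 0 in kidney and liver, where 6.44% and 4.56% did. The p-values set a group difference against the spread between these libraries, which edgeR estimates with information shared across genes. With 3 against 3 libraries an exact permutation test of a single gene cannot give a p below 0.1.

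**Figure D2:**
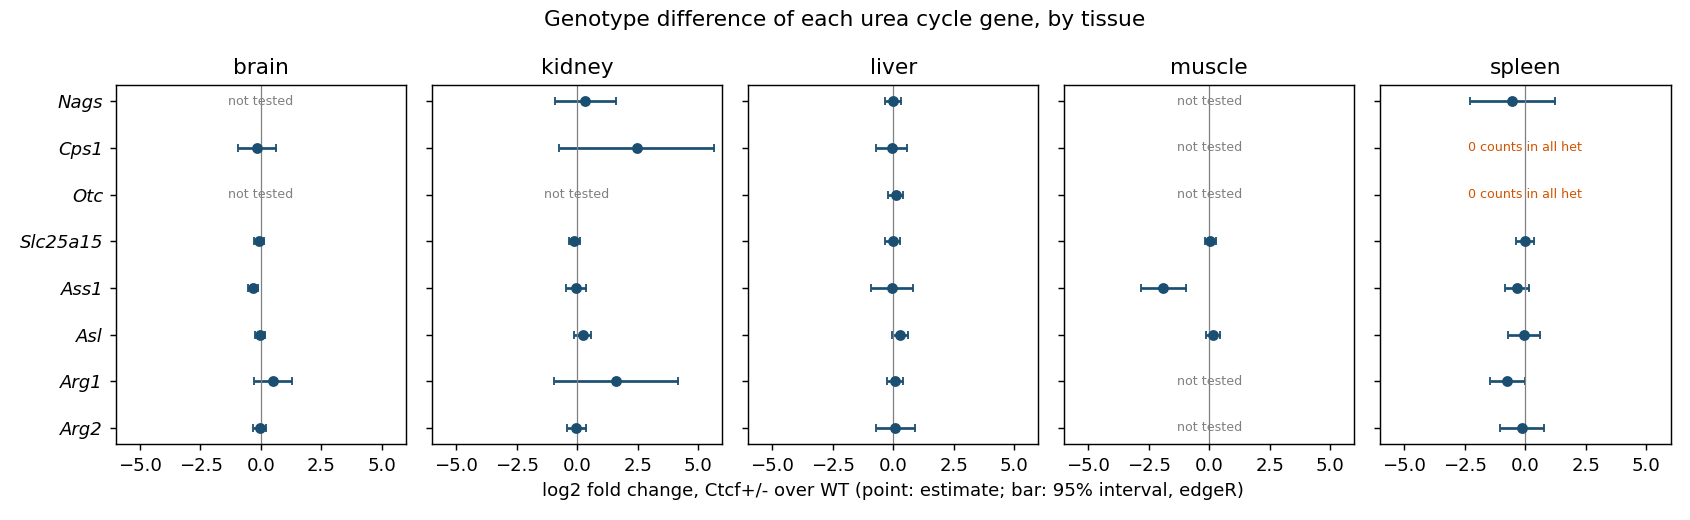
For each tissue the point is the log2 fold change of Ctcf+/- over WT and the bar its 95% interval from the edgeR fit; members are in rows. Intervals include 0 for every member tested in liver and kidney and for all tested in brain but Ass1. Those of Cps1, Arg1 and Nags in kidney are wide. Ass1 in muscle lies at -1.91, and Cps1 and Otc in spleen are written as text because no Ctcf+/- library held a count.

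In liver, where the cycle is complete, each of the 8 members had overlapping genotypes, while 8.97% of all genes had none. Cps1 measured 2182, 2409 and 4245 CPM in WT and 2281, 2628 and 3547 CPM in Ctcf+/- livers. Ass1 measured 2089, 2576 and 4799 CPM against 1940, 2601 and 4573 CPM. For both genes the highest library of either genotype was replicate 3. Otc measured 484, 526 and 522 CPM in WT and 515, 517 and 616 CPM in Ctcf+/- livers. For Asl the values were 493, 526 and 469 CPM against 517, 664 and 606 CPM, with 2 of the 3 Ctcf+/- livers above every WT liver. Arg1 measured 1101, 1189.8 and 1296 CPM against 1126, 1335 and 1281 CPM. Nags measured 84.9, 61.4 and 66.8 CPM against 68.6, 78.1 and 65.8 CPM, and Slc25a15 269, 291 and 278 CPM against 253, 306 and 266 CPM. These 3 showed no order by genotype. Arg2 stayed at 0.191 to 0.311 CPM in all 6 livers, on 11 to 21 counts.

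The liver estimates bound the size of a genotype difference. Log2 fold changes of Ctcf+/- over WT were 0.26 for Asl (95% interval -0.07 to 0.60), 0.11 for Otc (-0.21 to 0.42), 0.06 for Arg1 (-0.27 to 0.39), -0.00 for Nags (-0.35 to 0.34) and -0.02 for Slc25a15 (-0.32 to 0.28). For Cps1 (-0.06, interval -0.71 to 0.58) and Ass1 (-0.05, interval -0.93 to 0.82) the intervals were wider, as was that of Arg2 on its few counts (0.08, interval -0.72 to 0.89). The median over the 8 members was 0.03, beside -0.01 over all 15584 genes tested in liver, and the median absolute change was 0.06 for the members and 0.13 for all genes.

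Cps1 and Ass1 were high in liver replicate 3. Relative to the mean of replicates 1 and 2, Ass1 in replicate 3 was 2.06-fold in WT and 2.01-fold in Ctcf+/- livers, and Cps1 was 1.85-fold and 1.44-fold. The other 5 abundant members of the cycle lay between 0.898-fold and 1.19-fold by the same measure. Ass1 exceeded both other libraries by at least 1.5-fold in both genotypes, which 2.34% of all genes did. Of 41 related genes tested in liver none did so, although Gls2, the liver glutaminase, was 1.43-fold and 1.33-fold the higher of the other libraries in WT and Ctcf+/- and Hal, histidine ammonia-lyase, 1.43-fold and 1.34-fold. In the opposite direction Cebpb, a transcription factor, was lower in replicate 3 at 13.2 CPM against 29.5 and 53.6 in WT and at 16.9 CPM against 40.8 and 32.7 in Ctcf+/- livers, and Tbx3 met the same criterion, as 1.13% of all genes did. These were singled out after their values were seen. The labels do not say what the replicate numbers stand for in liver. Over all genes, the deviations of same-numbered WT and Ctcf+/- livers from their group means correlated at 0.051 for replicate 1, 0.118 for replicate 2 and 0.277 for replicate 3.

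**Figure D3:**
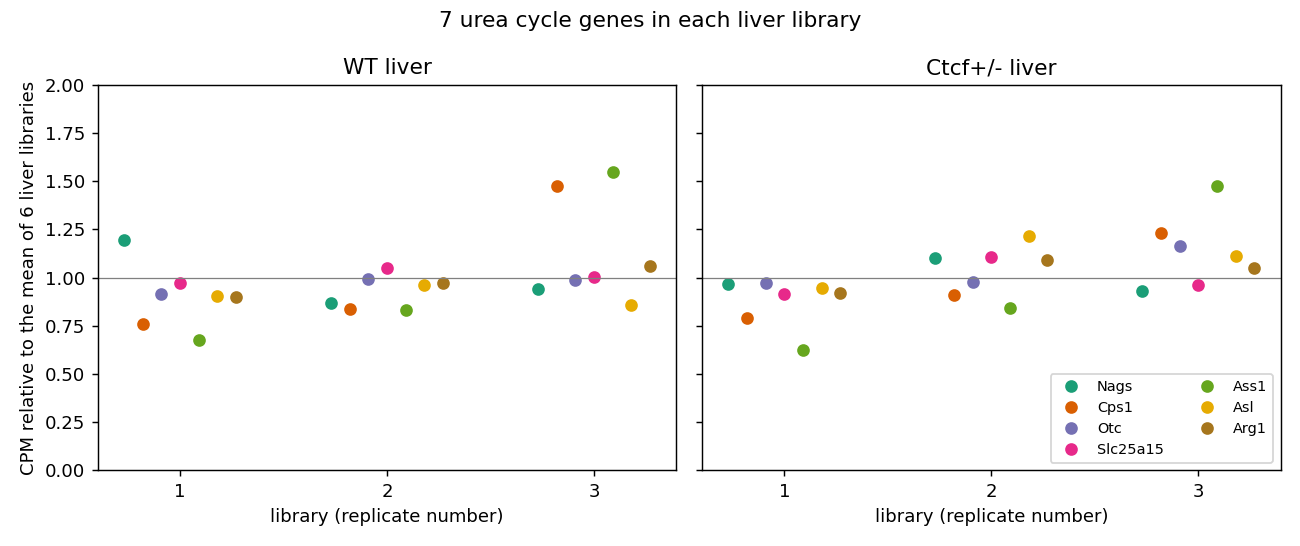
The CPM of 7 members in each liver library is divided by its mean over the 6 liver libraries, with WT on the left and Ctcf+/- on the right. In replicate 3 of both genotypes Ass1 (1.55 and 1.48) and Cps1 (1.47 and 1.23) stand above the others, which lie between 0.859 and 1.22 in every library.

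Spleen gave the single call. Cps1 was counted 139, 139 and 160 times in the WT spleens, or 2.03, 1.67 and 1.61 CPM, and 0 times in each of the 3 Ctcf+/- spleens. Against 3 counts per library the WT level was at least 51.7-fold higher (edgeR adjusted p = 0.0233, lower in 3 of 3 libraries). Otc followed the same pattern on 11 counts in each WT spleen and 0 in each Ctcf+/- spleen, at least 3.93-fold higher in WT, and was not called (adjusted p = 0.130). Both genes passed the filter on low counts through the WT spleens alone, the group where they are high. A filter of at least 10 counts in every library removes both. Arg1 measured 0.787, 0.709 and 1.04 CPM in WT and 0.520, 0.578 and 0.418 CPM in Ctcf+/- spleens, without overlap, and was not called either (log2 fold change -0.74, SE 0.30, adjusted p = 1). The groups of 3 members thus did not overlap, all 3 lower in Ctcf+/- spleen, where 6.65% of all genes were without overlap and 2.29% were without overlap and lower.

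Hepatocyte markers moved with Cps1 and Otc in these libraries. The 8 markers summed to 36.0 to 46.4 CPM in the WT spleens and 0.350 to 0.620 CPM in the Ctcf+/- spleens, 4 of the 8, Ahsg and Fgb among them, were at 0 in each Ctcf+/- spleen, and 7 of the 8 were called lower. Alb was counted 2091, 1989 and 2386 times in the WT spleens and 2, 5 and 10 times in the others. For each 1000 Alb counts the WT spleens held 66.5 to 69.9 Cps1 counts, whereas the WT livers held 15.4 to 35.9 and the Ctcf+/- livers 20.5 to 26.5. For Otc the ratio was 4.61 to 5.53 in WT spleen beside 3.37 to 4.41 in WT liver and 4.12 to 4.63 in Ctcf+/- liver, which overlaps the spleen range. Arg1 stood at 25.8 to 43.2 per 1000 in WT spleen against 7.63 to 10.9 in WT liver, and it was still counted 52, 42 and 40 times in the Ctcf+/- spleens, where Alb had at most 10 counts. The tubule markers ran the other way, at 0.0961 to 0.394 CPM in WT and 12.3 to 24.9 CPM in Ctcf+/- spleens, and 3 of 7 tested were called higher. The part of the liver markers in the Cps1 and Otc results was not tested.

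The Cps1 call also rests on few libraries. It was lost when any WT spleen (adjusted p = 0.113 without replicate 1, 0.240 without replicate 2 and 0.137 without replicate 3), or Ctcf+/- spleen 1 (0.0707) or 3 (0.0802), was left out, and in the fit with a replicate block (0.357), by the same edgeR test. In DESeq2 Otc was called as well (adjusted p = 0.00697). The remaining spleen members overlapped between genotypes: Ass1 measured 69.5, 51.9 and 52.0 CPM in WT and 43.4, 56.6 and 37.4 CPM in Ctcf+/- spleens, Asl 28.5, 18.6 and 19.7 against 18.5, 29.1 and 16.9, and Slc25a15 12.1, 11.2 and 12.47 against 10.9, 13.2 and 11.03. Arg2 was high in 1 WT spleen, at 4.90 CPM, and lay between 2.002 and 2.78 CPM in the other 5. Nags was low in 1 Ctcf+/- spleen, at 0.160 CPM, and ran from 0.595 to 1.47 CPM in the other 5.

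**Figure D4:**
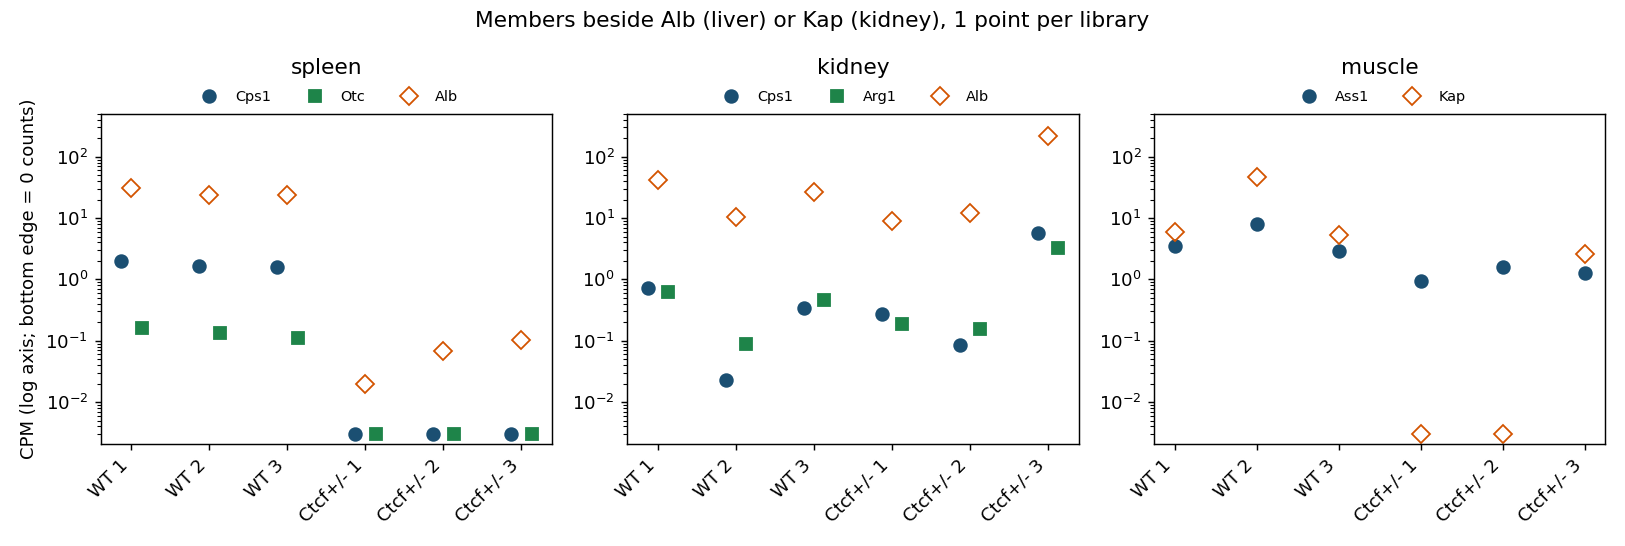
CPM on a log axis for each library of spleen, kidney and muscle, with 1 or 2 members as filled points and Alb or Kap as open diamonds; points on the bottom edge are 0 counts. Cps1 and Otc in spleen are present where Alb is 23.9 to 30.5 CPM, Cps1 and Arg1 in kidney are highest where Alb is 218 CPM, and Ass1 in muscle is highest where Kap is 46.2 CPM.

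In kidney the arginine-making members did not separate the genotypes. Ass1 measured 1563, 2665 and 2312 CPM in WT and 2051, 1959.9 and 2303 CPM in Ctcf+/- kidneys. Asl measured 182, 238 and 243 CPM against 249.6, 222 and 306 CPM, and Arg2 41.3, 27.2 and 29.4 CPM against 34.9, 26.2 and 35.2 CPM. Slc25a15 measured 159, 162 and 168 CPM against 168, 141 and 140.4 CPM. Log2 fold changes were 0.23 for Asl (95% interval -0.12 to 0.58), -0.05 for Ass1 (-0.47 to 0.37), -0.02 for Arg2 (-0.43 to 0.38) and -0.12 for Slc25a15 (-0.34 to 0.10). No member was without overlap in kidney, where 11.4% of all genes were.

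The liver members in kidney turned on 1 library. Ctcf+/- kidney 3 held 563 counts of Cps1, 324 of Arg1 and 130 of Otc, whereas the other 5 kidneys held 2 to 70, 8 to 59 and 1 to 22. The same library had Alb at 218 CPM, beside 8.79 to 41.3 CPM in the others, and its 8 hepatocyte markers, all of them above 0 in every kidney, summed to 514 CPM beside 168 to 205 CPM. Per 1000 Alb counts it held 26.1 Cps1, 15.03 Arg1 and 6.03 Otc counts, where the Ctcf+/- livers held 20.5 to 26.5, 9.58 to 10.6 and 4.12 to 4.63. With all libraries the log2 fold change was 2.46 for Cps1 (SE 1.41) and 1.62 for Arg1 (SE 1.12). Without this library it was -1.01 for Cps1 and -1.18 for Arg1, and neither was called in either fit (edgeR adjusted p = 0.902 and 0.963 with it, 0.798 and 0.667 without). Nags stood at 0.192 CPM in that library and at 0.0451 to 0.168 CPM in the other 5.

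In muscle Ass1 had the largest genotype difference of the 3 members with enough counts to be tested. It measured 3.46, 7.97 and 2.91 CPM in WT and 0.946, 1.59 and 1.29 CPM in Ctcf+/- muscles, so that every Ctcf+/- library lay below every WT library, as 6.26% of all genes did in muscle, where 12.2% were without overlap in either direction. The Ctcf+/- mean was 26.7% of the WT mean (log2 fold change -1.91, SE 0.40, 95% interval -2.84 to -0.98). The difference was not called by edgeR's quasi-likelihood test with Benjamini-Hochberg adjustment (unadjusted p 0.00145, adjusted p 0.306). It was called in 4 of the alternatives, DESeq2 (adjusted p = 7.68e-05), a looser filter on low counts (0.0313), the replicate block (0.0152) and a fit of all 30 libraries (0.00604), and over all alternatives the adjusted p ran up to 0.791. Leaving out WT muscle 2, the highest library, brought the log2 fold change to -1.33.

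The summed tubule markers were also higher in the WT muscles, and both they and Ass1 were highest in WT muscle 2. Among the Ctcf+/- muscles the markers were highest in library 3 and Ass1 in library 2. The 8 markers summed to 10.5, 74.3 and 10.3 CPM in the WT muscles and to 0.0986, 0.115 and 5.86 CPM in the Ctcf+/- muscles. Of the 7 tested, 6 were without overlap and none was called. Kap was counted 607, 4773 and 491 times in WT and 0, 0 and 247 times in Ctcf+/- muscle. Per 1000 Kap counts the WT muscles held 595, 172 and 542 Ass1 counts, while the WT kidneys held 98.0 to 178. Slc34a1, another tubule marker, was at 1.48, 7.16 and 1.49 CPM in the WT muscles and at 1.88 CPM in Ctcf+/- muscle 3. Per 1000 Slc34a1 counts that Ctcf+/- muscle held 687.5 Ass1 counts. The WT muscles held 2344, 1114 and 1956, and the WT kidneys 631 to 798. In the 2 Ctcf+/- muscles with no Kap count Ass1 was still counted 96 and 138 times. The part of the tubule markers in the Ass1 difference was not tested. The other 2 members tested did not separate the genotypes: Asl measured 10.7, 8.73 and 9.81 CPM against 9.63, 11.2 and 11.4, and Slc25a15 15.5, 15.7 and 15.3 against 15.3, 15.98 and 16.7. Their log2 fold changes were 0.14 (95% interval -0.15 to 0.43) and 0.04 (-0.17 to 0.26). Cps1, Otc, Arg1 and Arg2 had at most 12 counts in any muscle library and were not tested.

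In brain Ass1 was again lower. It measured 44.9, 51.9 and 53.2 CPM in WT and 36.2, 39.3 and 44.2 CPM in Ctcf+/- brains, without overlap, as 7.83% of all genes were, 4.1% in this direction. The mean in Ctcf+/- brain was 79.8% of that in WT (log2 fold change -0.33, SE 0.10), and the edgeR adjusted p was 1 over all genes tested, from an unadjusted p of 0.00975. With a replicate block, in a tissue where same-numbered libraries deviated together, the edgeR adjusted p was 0.0706. Ass1 was lower in 3 of 3 pairs, which groups without overlap give under any pairing. The other brain members overlapped. Asl measured 18.7, 18.5 and 15.7 CPM against 18.5, 17.3 and 16.2, Slc25a15 14.1, 13.9 and 12.3 against 13.4, 12.7 and 12.3, and Arg2 3.73, 3.71 and 4.10 against 3.99, 3.40 and 3.78. Log2 fold changes were -0.03 for Asl (95% interval -0.24 to 0.19), -0.07 for Slc25a15 (-0.27 to 0.13) and -0.05 for Arg2 (-0.32 to 0.22). Cps1, at 0.395 to 0.888 CPM, and Arg1, at 0.206 to 0.453 CPM, rested on 25 to 67 and 11 to 31 counts per library and overlapped between genotypes.

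Across tissues Ass1 had the lowest unadjusted p for a genotype effect shared by all 5. On the log2 scale the joint estimate was -0.48 with SE 0.19, and by edgeR the unadjusted p of 0.0191 became 0.630 after adjustment. For the shared effect 0 of 8 members were called, against 0.194% of all genes. Whether the effect differed between tissues was tested by the interaction of tissue and genotype. Cps1 was called (edgeR adjusted p = 0.0366) and the other 7 were not, against 0.758% of all genes. For Ass1 the interaction had an unadjusted p of 0.00393 and an adjusted p of 0.219. The Cps1 interaction rests on spleen, without which its adjusted p was 0.908. Without brain, liver or muscle it ranged from 0.0613 to 0.0728, and with a replicate block it was 0.0693. Without kidney both Cps1 and Otc were called.

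Related genes were tested in the same fits. Over the 5 lists of side reactions, ammonia and glutamate supply, hepatic factors, and periportal and pericentral genes, which share some genes and are counted once per list, edgeR called 0 of 39 entries tested in brain, 0 of 46 in kidney, 0 of 46 in liver and 0 of 36 in muscle. An unadjusted p under 0.05 was found for 8 kidney entries and 6 muscle entries, beside 6.44% and 6.45% of all genes. In brain there were 2, in liver 2 and in spleen 3 of 40, beside 2.96%, 4.56% and 3.52%. Of 40 tested in spleen 1 was called, Cyp2e1, a pericentral cytochrome that is also one of the 8 hepatocyte markers (log2 fold change -4.35, SE 0.48, edgeR adjusted p = 0.0317). The markers of brain, skeletal muscle, lymphoid and erythroid cells and myeloid cells had no call in any of the 5 tissues.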

How the data were processed

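RNA was extracted with TRIzol and treated with TURBO DNA-free, and libraries had an RIN over 7, per the labels' protocols. The authors deposited raw fragment counts per gene in 1 table for each tissue, counted over exons with featureCounts 1.5.0-p3 on GRCm38 and Ensembl release 86 without a strand option, per the file headers; the submitters' processing notes also list FastQC, STAR and DESeq2. The members and the gene lists were chosen with earlier results of these data known. All 8 members are named everywhere, related genes where called or among the highest 2 of a tissue, and the 3 most alike genes for each member. Genotype was tested within each tissue, and tissues were tested in pairs, with edgeR 4.0.16 in R 4.3.3 (quasi-likelihood test, TMM, filterByExpr, Benjamini-Hochberg over all genes, threshold 0.05), and the code was tested on simulated data. Alternatives were DESeq2 1.42.0, other scalings and filters, a replicate block, a fit of all 30 libraries and leaving out libraries or tissues. Library totals were 49819907 to 131645999 counts, which puts the limit that a count of 0 allows (3 counts) between 0.0228 and 0.0602 CPM, for counting error only. The 30 replicate pairs differed by 15.4 to 640 chi-square per degree of freedom, so none was merged. Libraries of the same number deviated together in brain (correlations 0.207, 0.383 and 0.537) and kidney (0.209, 0.190 and 0.212), the threshold being 0.1 in every pair. Promoter windows are from RefSeq (GRCm38.p6).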

Additional observations from a re-analysis of the deposited data

Results flagged for a closer look

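The genotype effect on Cps1 differed between tissues by the test of the interaction of tissue and genotype (edgeR adjusted p = 0.0366). Cps1 was counted 139, 139 and 160 times in the WT spleens and 0 times in the Ctcf+/- spleens, while in liver the log2 fold change was -0.06 (95% interval -0.71 to 0.58). In kidney it was 2.46 with Ctcf+/- kidney 3 and -1.01 without that library. Alb moved with Cps1 in both tissues, at 23.9 to 30.5 CPM in WT against 0.0200 to 0.104 CPM in Ctcf+/- spleens and at 218 CPM in Ctcf+/- kidney 3 against 8.79 to 41.3 CPM in the other kidneys. Its part in the result was not tested.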

How the results depend on the processing

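Over the members' fold changes and tests, 1178 values were recomputed: 1051 kept direction and side of the threshold, 35 lost and 25 gained a call, and 67 changed sign, 4 of these called at first. In muscle 1 member was called, not 0, by DESeq2, with at least 1 count in 1 library, with the replicate block and in the fit of all 30 libraries. Over all genes the muscle calls numbered 4, against 182, 66, 118 and 229 in these. In spleen 2 members were called by DESeq2, 0 with at least 10 counts in every library (which removes Cps1), 0 with the replicate block and 0 to 1 without single libraries; over all genes 45 became 192, 0, 0 and 0 to 29, 60 by total counts, 74 with at least 1 count and 250 in the fit of 30. The interaction called 0 members with the replicate block or without brain, liver, muscle or spleen, and 2 without kidney. Kidney against muscle gave 8 calls by total counts or in Ctcf+/- libraries. At 2 FPKM brain and spleen held 2 members each.

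The replicate block kept 119 of 128 values. It ended the calls for spleen Cps1 (adjusted p = 0.357), the Cps1 interaction (0.0693), Asl between brain and muscle (0.0600) and Slc25a15 between brain and spleen (0.0527), and made calls for muscle Ass1 (0.0152) and Arg1 between kidney and spleen (0.0495), and changed no other call. It turned the log2 fold changes of liver Nags (0.0058), spleen Arg2 (0.0085) and shared Otc (-0.0731). In liver, muscle and spleen the numbers did not pair the libraries in every pair (lowest correlations 0.051, 0.083 and -0.47), and 3, 5 and 1 of 6 libraries correlated best with their own number.

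Other sign changes of genotype effects were brain Asl 0.0386, brain Arg2 0.0194 and liver Nags 0.0069 (fit of 30), liver Nags 0.0631, liver Slc25a15 0.0479 and spleen Slc25a15 0.0056 (total counts) and liver Nags 0.00019 (10 counts). Shared effects turned for Otc (-0.39), Arg1 (-0.15) and Slc25a15 (0.00084) without kidney, Otc (-0.30) without liver, and Cps1 (0.56) and Nags (0.0070) without spleen. Between tissues, total counts turned Otc brain over kidney (0.0101), Asl brain over muscle (0.87) and Asl muscle over spleen (-1.16), DESeq2 turned Otc brain over kidney (0.0721) and the filter of 1 count Otc kidney over spleen (0.0180). Ctcf+/- libraries turned Cps1 brain over kidney (-1.9997), Cps1 and Otc brain over spleen (8.24, 5.95), Cps1, Otc and Arg1 kidney over spleen (10.24, 8.10, 1.44) and Cps1 and Otc muscle over spleen (3.82, 2.42). The causes were not tested.

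Without single libraries, ranges that crossed 0 were -0.39 to 0.18 (Cps1), -0.10 to 0.0186 (Asl) and -0.10 to 0.0162 (Arg2) in brain; -1.01 to 3.46 (Cps1), -0.24 to 0.12 (Ass1), -1.18 to 2.13 (Arg1), -0.14 to 0.18 (Arg2) and -0.0282 to 0.74 (Nags) in kidney; -0.26 to 0.30 (Cps1), -0.47 to 0.38 (Ass1), -0.0517 to 0.31 (Arg2), -0.10 to 0.14 (Nags) and -0.10 to 0.0453 (Slc25a15) in liver; and -0.33 to 0.17 (Asl), -0.35 to 0.43 (Arg2) and -0.12 to 0.0239 (Slc25a15) in spleen. Between tissues they were -0.31 to 0.37 (Arg1, brain over muscle), -0.0189 to 0.31 (Asl, muscle over spleen), -0.28 to 0.12 (Ass1, brain over spleen), -0.60 to 0.32 and -0.54 to 0.89 (Nags and Otc, brain over kidney), -0.36 to 1.36 (Otc, kidney over muscle) and -0.96 to 0.48 (Otc, kidney over spleen). Low counts limit Otc, Nags, Cps1 and Arg1 outside liver.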
